A study of Homo sapiens with 80 samples.

Results

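The transcripts of 10 genes of the splicing machinery were followed in Jurkat T cells. Of these, 6 encode serine/arginine-rich (SR) splicing factors (SRSF2, SRSF3, SRSF5, SRSF6, SRSF7 and SRSF11) and 4 encode the CDC-like kinases CLK1, CLK2, CLK3 and CLK4. They were chosen by gene symbol, with heat shock as the reference stress for CLK1 and the SR transcripts, and they are 10 of the 60663 genes with usable rows in the count table.

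SR proteins bind exonic sequences in pre-mRNA and recruit the spliceosome to neighbouring splice sites. CLK kinases reside in the nucleus and phosphorylate the arginine/serine domains of SR proteins, which releases the SR proteins from nuclear speckles. Transcripts of both families carry poison exons or retained introns, and CLK1 is the textbook example of a stored, intron-retaining transcript whose splicing is completed upon heat shock.

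Jurkat clone E6-1 is a human T-cell leukaemia line, and the sample titles name no added allele or agent. The study asked how fast the transcriptome responds to 9 g in a pipette centrifuge and to the 300 g spin of routine cell culture. Groups of 6 libraries were exposed to 9 g for 20 or 75 s (named hypg20s and hypg75s) or for 3, 5, 7, 9, 15 or 60 min (named hypg with the minutes, as in hypg60). Their controls stayed at 1 g for 15 min (Ctrl, the control of all times up to 15 min) or for 60 min (Ctrl60), again with 6 libraries each. The count columns name the Ctrl60 libraries as control plus HEPES, a buffer that the titles do not mention and that the hypg60 columns do not name, so that an effect of HEPES and the time at 9 g cannot be told apart in the 60 min values. In the second experiment, groups of 4 libraries were spun at 300 g for 5 min and lysed 1 min (wait1min), 4 min (wait4min) or 15 min (wait15min) after the stop, or were kept in a water bath at 42 °C (heat). Both treatments have the same 4 control libraries (Ctrl300g), lysed directly. The count columns call the wait1min libraries instant and the wait4min libraries 1min, against the titles and treatment labels used here, so the waiting times carry that doubt. The cells of all groups came from 1 clone, and nothing states that libraries of a group came from separate cultures, so p-values measure the spread between these samples, which may be technical.

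Library 75 of hypg15 held no count on chromosomes 4 to 9, X and Y or in the mitochondrial genome and was left out, which leaves 79 of 80 libraries. Totals ranged from 22634465 to 41893490 counts in the remaining 9 g libraries and from 24417717 to 41220541 in the others. The T-cell genes CD3E and LCK had median levels of 553 and 1241 CPM, the epithelial gene EPCAM was at a median of 0, and the B-cell gene CD79A stood at 58.6 CPM. A further 2 facts of the libraries move with many results below. The libraries of hypg3 and hypg15 are numbered 69 to 80, apart from Ctrl (1 to 6), so that this difference and the time at 9 g cannot be told apart. The share of counts in genes of at least 55% GC was 41.6% in Ctrl (median), 45.4% in hypg3 and 45.7% in the 5 libraries of hypg15, and it was 40.1% in Ctrl300g, 27.0% in wait1min and 40.2% in heat. The members have 35.7% (CLK1) to 52.3% (CLK2) GC in their longest transcript, and only CLK2 lies above the median of 49.1% for genes averaging 10 counts or more. Values are therefore given again from a fit that removes a smooth curve against GC content from each library.

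Levels are counts per 1000000 on TMM-scaled totals (CPM), changes are log2 fold changes ± SE from edgeR's quasi-likelihood test, and a change was called at a Benjamini-Hochberg adjusted p below 0.05 over all genes tested. In bulk RNA, fewer cells of a type and less RNA per cell cannot be told apart. The exons counted for the 10 genes include those of 41 retained-intron and 22 nonsense-mediated decay transcripts among 132 annotated ones, so a gene count mixes productive and unproductive isoforms.

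All 10 members passed the filter on low counts in each comparison. Per kilobase of exon in Ctrl, SRSF2 was the most abundant with 136 ± 3.76 CPM per kb (SD, n = 6). SRSF3 followed with 53.6 ± 1.93 CPM per kb. SRSF6 (36.5 ± 1.34) and SRSF7 (35.9 ± 2.42) did not differ beyond their spread. SRSF5 stood at 21.0 ± 1.41 CPM per kb, below both and above SRSF11 and CLK2. SRSF11 (8.95 ± 1.15) and CLK2 (8.50 ± 0.185) again lay within their spread. The other kinases had the lowest levels per length, with CLK3 at 4.76 ± 0.156, CLK1 at 3.73 ± 0.435 and CLK4 at 0.83 ± 0.165 CPM per kb. CLK4 was also the member with the fewest reads, with 110 to 813 counts per library, against 7894 to 17389 for SRSF2.

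RefSeq promoter windows (GRCh38.p14) were found for 9 of the members, as 13 windows of 250 bases before an annotated start. A window of CLK1, of CLK4 and of SRSF3 is shown up to the first annotated exon. CLK1 and CLK4 are shown because their transcripts had among the largest changes, and SRSF3 because it held the most motif matches. Capitals mark matches to the motifs searched on both strands (GAANNTTC and TTCNNGAA as parts of a heat shock element, which may overlap each other, the cyclic AMP response element TGACGTCA, the CCAAT box, TATAAA as a TATA box, and the E-box CACGTG).
CLK1 (chr2:200864745-200864908, minus strand): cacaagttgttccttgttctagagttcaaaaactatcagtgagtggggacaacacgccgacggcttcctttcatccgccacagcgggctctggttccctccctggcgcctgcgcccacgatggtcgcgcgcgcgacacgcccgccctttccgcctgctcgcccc
CLK4 (chr5:178627115-178627300, minus strand): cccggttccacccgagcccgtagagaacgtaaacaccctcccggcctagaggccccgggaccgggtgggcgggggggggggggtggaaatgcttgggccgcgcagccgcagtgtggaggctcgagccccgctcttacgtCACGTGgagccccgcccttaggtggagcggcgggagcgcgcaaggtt
SRSF3 (chr6:36594112-36594352, plus strand): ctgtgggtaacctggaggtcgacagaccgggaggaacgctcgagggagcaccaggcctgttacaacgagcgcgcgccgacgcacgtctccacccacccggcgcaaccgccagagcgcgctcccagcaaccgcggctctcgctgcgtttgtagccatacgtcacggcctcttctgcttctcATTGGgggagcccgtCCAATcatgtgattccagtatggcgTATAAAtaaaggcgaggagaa
The E-box lay 111 bases before the RefSeq start of CLK4 and 72 bases before that of CLK2, and 6.34% of the 35116 windows of this length hold it. SRSF3 had CCAAT boxes at 70 and 55 bases and TATAAA at 30 bases before its start (32.0% and 10.7% of all windows). Neither heat shock element pattern was found in any of the 13 windows, while 5.78% and 6.62% of all windows hold them. TGACGTCA was also absent from the 13 windows (1.65% of all). These are matches of letters in a window only.

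**Figure D1:**
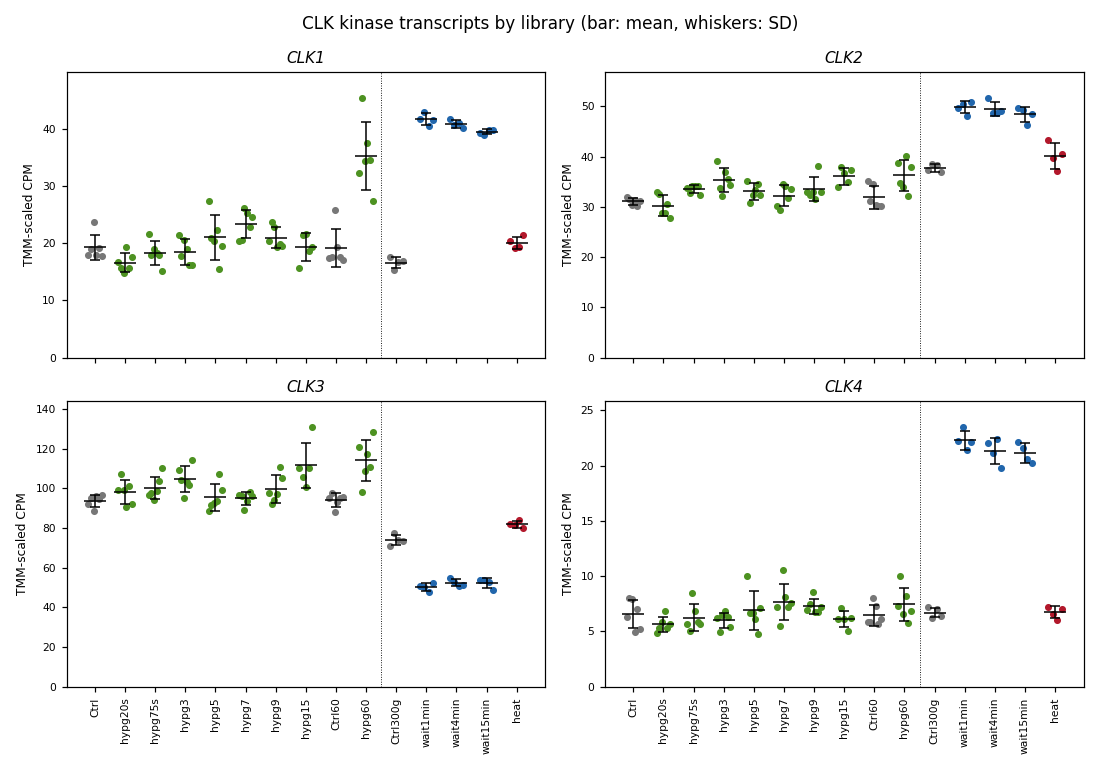
TMM-scaled CPM of the 4 CLK transcripts in each of 79 libraries (points), by group, with the mean (bar) and SD (whiskers). Grey marks controls, green 9 g, blue 300 g and red heat, and the dotted line separates the 2 experiments. CLK1 stands apart at 60 min of 9 g and after 300 g, CLK3 is below Ctrl300g after 300 g, and CLK4 is above it.

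Heat shock was the reference stress. Of the 10 members, 5 rose and 1 fell in heat, against 10.6% of the 16655 genes tested called higher and 10.2% called lower. CLK1, the kinase of SR proteins whose splicing is heat-sensitive, had 17.6, 15.2, 16.7 and 17.0 CPM in the Ctrl300g libraries and 20.4, 19.2, 19.3 and 21.5 CPM in heat. All heat libraries were above all control libraries. Its change was 0.29 ± 0.061 (edgeR, adjusted p = 0.0026), which is a rise of 1.22-fold. CLK3 rose by less, from 71.1, 77.4, 74.0 and 73.5 CPM to 82.1, 81.3, 83.9 and 79.8 CPM (0.16 ± 0.035, adjusted p = 0.0028), and its groups did not overlap. CLK2 (0.11 ± 0.048) and CLK4 (0.019 ± 0.085) were not called. For CLK4 the 95% interval of the change ran from -0.15 to 0.19.

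Among the SR transcripts, SRSF6, a factor that promotes exon inclusion, rose the most in heat, from 205, 187, 201 and 190 CPM to 216, 220, 210 and 219 CPM (0.16 ± 0.034, adjusted p = 0.0029). SRSF3, which also takes part in mRNA export, went from 365, 348, 364 and 344 CPM to 375, 382, 382 and 377 CPM, with no overlap (0.11 ± 0.029, adjusted p = 0.011). SRSF7, its close relative and a fellow adaptor of mRNA export, rose by 0.088 ± 0.029 (adjusted p = 0.043). SRSF2, the SR protein that contacts the U2 and U1 machinery at splice sites, fell from 383, 398, 410 and 402 CPM to 353, 352, 372 and 382 CPM. The highest heat library stayed below the lowest control (-0.11 ± 0.032, adjusted p = 0.024). SRSF5 (0.047 ± 0.035) and SRSF11 (-0.041 ± 0.070) were not called. The member median was 0.097, beside 0.0080 over all genes tested. In a single model over all 300 g and heat groups, SRSF2 (-0.18), CLK1 (0.22) and CLK3 (0.094) remained called and SRSF3, SRSF6 and SRSF7 did not. The GC curve left all 6 calls in place and added SRSF5 (0.092, adjusted p = 0.044). The smallest of these calls depended on single libraries. SRSF7 lost its call without any of the libraries 50, 51, 52, 65, 67 or 68, SRSF2 without 51, 65 or 66, and SRSF3 without 50 or 52, whereas CLK1, CLK3 and SRSF6 were called whichever library was left out.

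The heat shock genes in the same libraries give the strength of the stress. HSPA1B, an inducible HSP70, rose from 15.5 ± 1.03 to 23.7 ± 1.19 CPM (SD, n = 4), a change of 0.63 ± 0.060 (adjusted p = 2.4e-06). DNAJB1, an HSP40 co-chaperone, rose by 0.17 ± 0.032 (adjusted p = 0.00096). HSPH1, an HSP110 chaperone, fell by 0.32 ± 0.060 on the log2 scale (adjusted p = 0.0012). HSPA1A stood below 1 CPM and was not called (adjusted p = 0.30). In the other groups, HSPH1 fell at 3 min of 9 g (-0.85 ± 0.071) and rose in wait1min (1.07 ± 0.057), where DNAJB1 fell (-0.94 ± 0.040). These are values without the GC curve, for genes of 40.0% (HSPH1) and 53.0% (DNAJB1) GC. Genes below 40% GC had median changes of -0.40 at 3 min and 1.63 in wait1min. The part of GC content in the chaperone values was not tested.

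**Figure D2:**
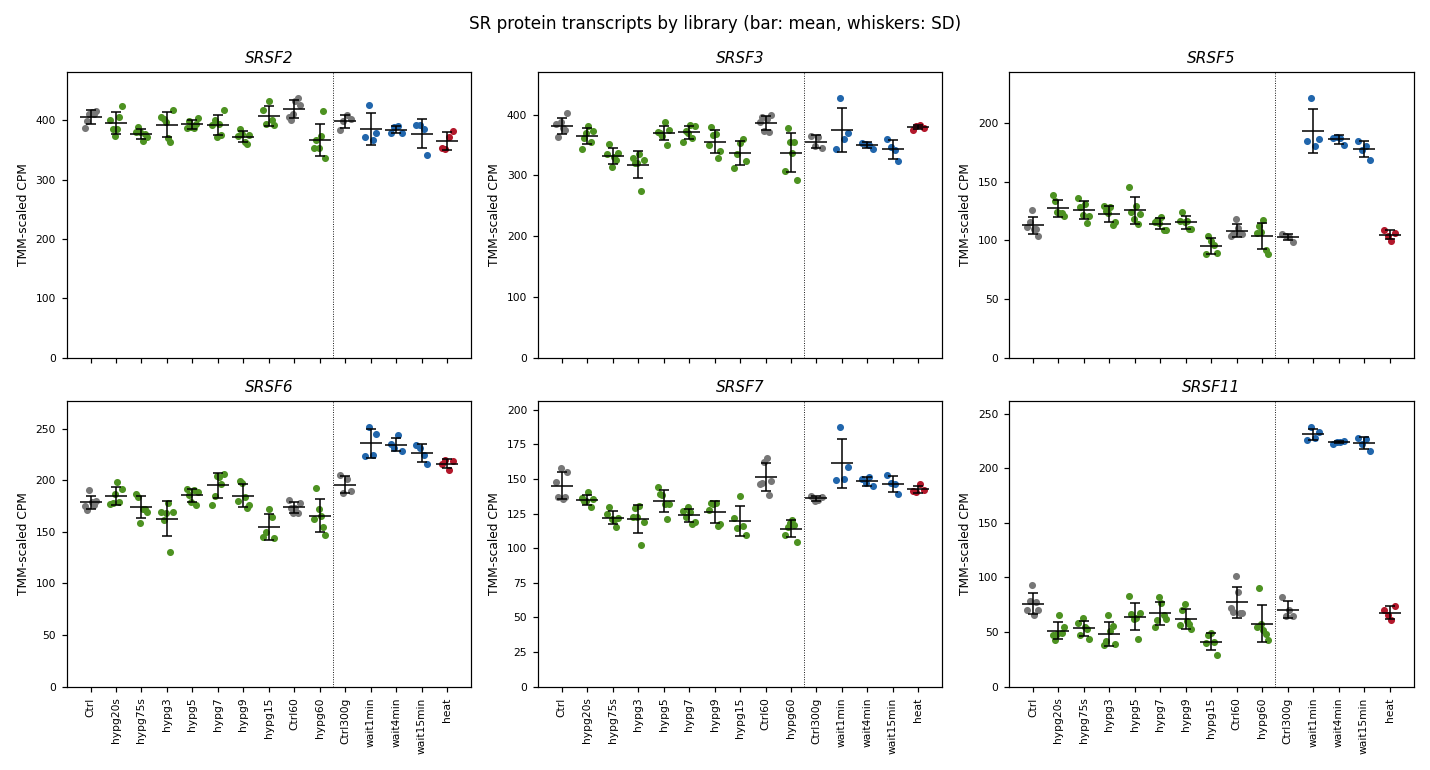
TMM-scaled CPM of the 6 SR transcripts in each of 79 libraries (points), by group, with the mean (bar) and SD (whiskers). Colours are those of the CLK plot. SRSF5 and SRSF11 are far above Ctrl300g in the 300 g groups, SRSF11 is lowest in hypg15, and SRSF2 and SRSF3 move little in comparison.

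After 5 min at 300 g the same controls were compared with cells lysed 1 min after the stop. In wait1min, 7 members were called higher and 1 lower, against 41.4% and 40.1% of the 17155 genes tested, so that most genes were called in this comparison. CLK4, the paralogue of CLK1, had 7.16, 6.24, 6.99 and 6.40 CPM in Ctrl300g and 22.2, 23.5, 21.4 and 22.1 CPM in wait1min. CLK1 stood at 41.7, 43.0, 40.5 and 41.6 CPM after the spin. Every 300 g library was above every control library for both kinases. The change was 1.70 ± 0.063 for CLK4 (adjusted p = 7.5e-14) and 1.29 ± 0.051 for CLK1 (adjusted p = 1.4e-13). SRSF11, a less well studied SR protein, went from 81.8, 64.9, 70.1 and 65.1 CPM to 226, 238, 228 and 233 CPM, a change of 1.68 ± 0.058 (adjusted p = 3.2e-14). SRSF5, an SR factor that activates splice sites, went from 105, 103.9, 103 and 98.8 CPM to 185, 221, 181 and 187 CPM (0.88 ± 0.051, adjusted p = 2.6e-11). For both SR transcripts the groups were far apart.

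CLK2 rose by 0.37 ± 0.040 (adjusted p = 1.8e-07), from 37.8 ± 0.819 to 49.8 ± 1.19 CPM (SD, n = 4). SRSF6 and SRSF7 rose by 0.24 ± 0.044 and 0.21 ± 0.054, and without library 54 SRSF7 was at 0.14 (adjusted p = 0.0016). CLK3 went the other way, with 71.1 to 77.4 CPM in Ctrl300g and 47.7 to 52.2 CPM in wait1min (-0.59 ± 0.041, adjusted p = 3.2e-10). SRSF2 (-0.079 ± 0.042) and SRSF3 (0.045 ± 0.052) were not called, but without library 54 SRSF2 was called lower (-0.13, adjusted p = 0.0010). The member median was 0.30 and that of all genes 0.0056.

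Several 300 g changes turned with the correction for GC content. Genes below 40% GC had a median change of 1.63 in wait1min, and CLK1, CLK4, SRSF3, SRSF6 and SRSF11 are among such genes. With the GC curve, CLK1 went from 1.29 to -0.17 (adjusted p = 0.0028), SRSF6 from 0.24 to -0.76, SRSF7 from 0.21 to -0.49 and SRSF3 from 0.045 to -0.999. CLK4 and SRSF11 kept their direction with smaller values of 0.28 and 0.31. SRSF5 was no longer called at 0.0097, and SRSF2 was called lower at -0.10. CLK2, the member with the highest GC content, had the larger value of 0.82, and CLK3 kept its fall at -0.51. This correction placed the median of all genes at 0.13, and it then called 3 members higher and 6 lower, beside 44.3% and 28.2% of all genes. Scaling by total counts alone raised the median of all genes by 0.24 in wait1min, and SRSF2 was then called higher (0.17) and CLK3 lower (-0.34).

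**Figure D3:**
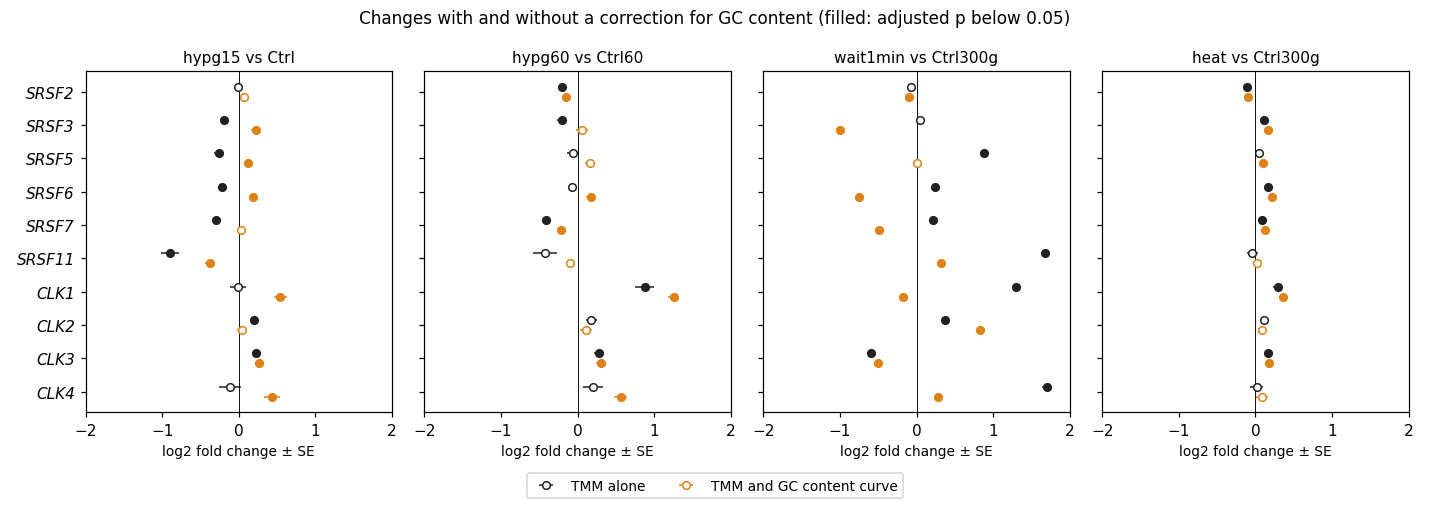
Log2 fold change ± SE of each member in 4 comparisons, with TMM scaling alone (black) and with a GC content curve removed from each library (orange). Filled points have an adjusted p below 0.05. CLK1 moves from 1.29 to -0.17 in wait1min and from 0.87 to 1.25 in hypg60. In heat the member median moves from 0.097 to 0.11, and SRSF5 gains a call.

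The waiting time after the spin made little difference. In wait4min, 7 members were called higher and 2 lower (background 41.7% and 40.6% of genes), and in wait15min 7 and 3 (41.8% and 40.5%). CLK1 had 41.7, 40.7, 41.1 and 40.1 CPM at 4 min and 39.3, 39.0, 39.8 and 39.9 CPM at 15 min, with changes of 1.27 ± 0.046 and 1.22 ± 0.048. CLK4 changed by 1.64 ± 0.063 and 1.63 ± 0.062, and SRSF11 by 1.64 ± 0.049 and 1.64 ± 0.055. CLK3 was at -0.53 at both times. The GC curve gave the opposite balance, with 3 members called higher and 6 lower in wait4min (45.5% and 29.3% of genes) and 3 and 7 in wait15min (45.2% and 29.1%). CLK1 was then at -0.13 and -0.18 and SRSF7 at -0.58 and -0.59, while CLK4 (0.29 and 0.27) and SRSF11 (0.33 at both times) stayed higher. The SR transcripts near the threshold were SRSF2 (-0.083 and -0.10, both called), SRSF3 (-0.053, not called, and -0.077, called) and SRSF7 (0.095 and 0.079, both called). Without library 64 of wait15min, SRSF2 (-0.056) and SRSF3 (-0.047) were no longer called there. The call of SRSF3 was also lost without library 49, 51, 62 or 63, and that of SRSF7 without 50, 61, 62 or 63. Between wait15min and wait1min no member was called, against 0.149% of genes (26 of 17446, with 2192 at an unadjusted p below 0.05). CLK1 was slightly lower in all wait15min libraries than in all wait1min libraries (-0.071 ± 0.037, adjusted p = 0.44).

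Heat and 300 g were also compared with each other. Relative to wait1min, heat had 1 member called higher and 8 lower, with 39.1% and 42.0% of 17489 genes called in these directions. CLK4 was lower by -1.77 ± 0.065, SRSF11 by -1.82 ± 0.050 and CLK1 by -1.10 ± 0.051. CLK3 was higher by 0.66 ± 0.041. The SRSF3 difference was -0.026 ± 0.048, with an interval from -0.12 to 0.068. With the GC curve CLK1 was higher in heat than in wait1min (0.42), as were SRSF3 (1.06), SRSF6 (0.87) and SRSF7 (0.52).

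**Figure D4:**
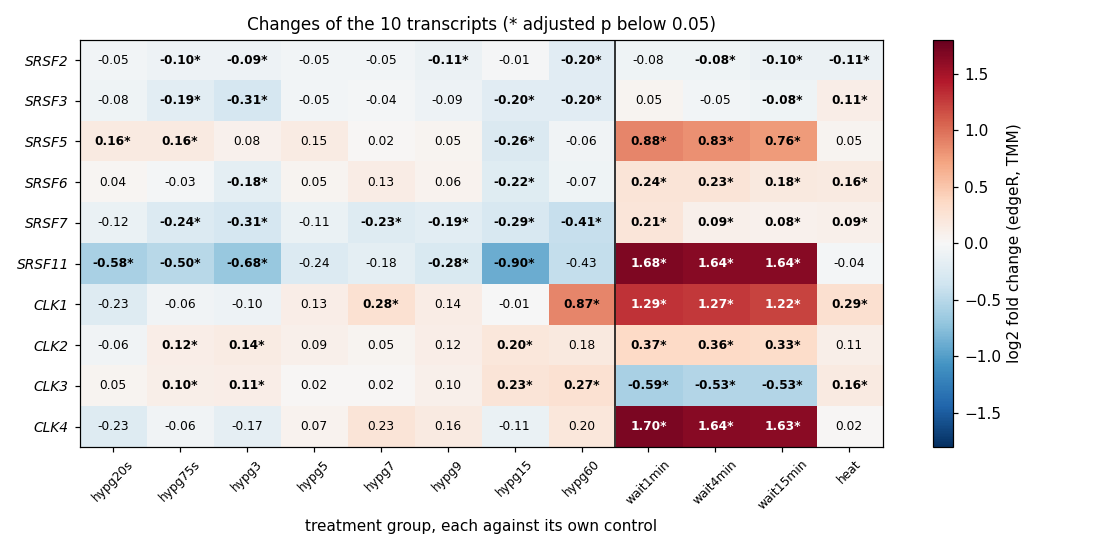
Log2 fold change of each member (rows) in each of 12 treatment groups (columns) against its own control, on TMM scaling without a GC correction. An asterisk marks an adjusted p below 0.05, and the line separates 9 g from 300 g and heat. SRSF11 reads -0.90 in hypg15 and 1.68 in wait1min, and CLK1 reads 0.87 in hypg60 and 1.29 in wait1min.

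At 9 g, CLK1 was the member with the largest rise on TMM scaling. Its level was 17.8, 18.5 and 23.7 CPM in Ctrl (lowest, median and highest of 6) and 17.2, 17.6 and 25.9 CPM in Ctrl60. At 60 min of 9 g it was 27.4, 34.5 and 45.4 CPM, and the lowest hypg60 library exceeded the highest Ctrl60 library. The change was 0.87 ± 0.13 (adjusted p = 0.00017), a rise of 1.83-fold. Without library 44 of hypg60, the highest one, it was 0.80, and with the GC curve it was 1.25 (adjusted p = 1.3e-08). At 7 min CLK1 had 20.4, 23.7 and 26.2 CPM (0.28 ± 0.083, adjusted p = 0.039), which overlapped with Ctrl. This call was lost in a single model over all groups of the experiment (0.28, adjusted p = 0.088) and with 3 surrogate variables (0.20, adjusted p = 0.078). It was not called at 20 s (-0.23 ± 0.085), 75 s (-0.063 ± 0.092), 3 min (-0.098 ± 0.095), 5 min (0.13 ± 0.11), 9 min (0.14 ± 0.079, called at 0.20 without library 3 of Ctrl) or 15 min (-0.0079 ± 0.10). With the GC curve, its value was called at every time from 75 s on, from 0.23 at 75 s to 0.55 at 15 min.

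The other members at 60 min were as follows. Of the 10, 2 were called higher and 3 lower, beside 17.1% and 13.0% of 16318 genes. CLK3 went from 88.1, 95.2 and 97.6 CPM in Ctrl60 to 98.2, 114 and 128 CPM in hypg60 (0.27 ± 0.060, adjusted p = 0.0034), without overlap. SRSF7 went from 138, 148 and 165 CPM to 105, 116 and 121 CPM, also without overlap (-0.41 ± 0.059, adjusted p = 0.00016). SRSF2 fell by 0.20 ± 0.056 and SRSF3 by 0.20 ± 0.063 on the log2 scale. SRSF3 lost its call without library 9 of Ctrl60 (-0.18, adjusted p = 0.064) and was at 0.057 with the GC curve, while SRSF7 (-0.21), SRSF2 (-0.15) and CLK3 (0.30) kept their calls. SRSF11 was at 43.0, 53.2 and 90.5 CPM against 67.3, 69.8 and 101 CPM and was not called (-0.43 ± 0.16, adjusted p = 0.054). Library 44 held its highest value, and without it SRSF11 was called at -0.60 (adjusted p = 0.00055). Without library 9 of Ctrl60 it was at -0.29 (adjusted p = 0.19), and with the GC curve at -0.094 (adjusted p = 0.24), neither of them called. It was called with DESeq2 (adjusted p = 0.030), with RLE factors (edgeR, 0.048), in the single model (edgeR, 0.015) and without a filter (edgeR, 0.021), at values from -0.43 to -0.44, whereas 3 surrogate variables gave -0.039 (adjusted p = 0.74). In this group the share of counts in genes of high GC content ranged from 36.9% to 46.5%, and it was lowest in library 44. HSPA1B had 86.8 ± 11.2 CPM in hypg60 and 13.4 ± 0.486 CPM in Ctrl60 (SD, n = 6), a change of 2.69 ± 0.079 (adjusted p = 2.7e-11).

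The short times at 9 g share the Ctrl libraries, so their values are given side by side. SRSF11 had 66.0, 73.7 and 93.0 CPM in Ctrl. It had 42.8, 48.4 and 65.3 CPM at 20 s, all below Ctrl (-0.58 ± 0.10, adjusted p = 0.0021). It was at -0.50 ± 0.10 at 75 s and -0.68 ± 0.14 at 3 min, again below Ctrl in every library. At 5 and 7 min it was not called (-0.24 ± 0.12 and -0.18 ± 0.096), and at 9 min it stood at -0.28 ± 0.094 (adjusted p = 0.0498), a call that was lost without library 3 of Ctrl (-0.22, adjusted p = 0.079). At 15 min it was 28.8, 41.0 and 48.9 CPM, the lowest of all groups (-0.90 ± 0.12, adjusted p = 3.3e-05). With 3 surrogate variables the value at 15 min was -0.17 (adjusted p = 0.17), and that at 9 min -0.075 (adjusted p = 0.51). After removal of the GC curve SRSF11 stood at -0.31, -0.23, -0.36, -0.10, -0.16, -0.14 and -0.38 at these 7 times, called at all but 5 min.

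SRSF7 had 136, 143 and 158 CPM in Ctrl. Among the times up to 15 min, the largest differences were at 3 min (102, 123 and 130 CPM, -0.31 ± 0.056, adjusted p = 0.00058) and 15 min (110, 116 and 137 CPM, -0.29 ± 0.059, adjusted p = 0.00076). Values at 3 min were all below Ctrl, and those at 15 min overlapped with it. SRSF7 was also called at 75 s (-0.24 ± 0.043), 7 min (-0.23 ± 0.042) and 9 min (-0.19 ± 0.049), but not at 20 s (-0.12 ± 0.039) or 5 min (-0.11 ± 0.053). With the GC curve it was called at 7 min (-0.20) and 9 min (-0.12) and was at -0.059 at 3 min and 0.032 at 15 min. SRSF3 fell at 75 s (-0.19), 3 min (-0.31) and 15 min (-0.20), and its values with the GC curve were 0.022, -0.0035 and 0.23, of which the last was called.

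SRSF2 fell slightly at 75 s (-0.095 ± 0.028, adjusted p = 0.018), 3 min (-0.092 ± 0.033, adjusted p = 0.036) and 9 min (-0.11 ± 0.031, adjusted p = 0.019). Only at 9 min did its levels not overlap with Ctrl. It was not called at 20 s, 5 min, 7 min or 15 min, where its values ran from -0.051 to -0.015. With the GC curve it was at -0.066 at 75 s and -0.015 at 3 min, without a call, and without library 73 of hypg3 it was at -0.046 at 3 min (adjusted p = 0.29). The call at 3 min was also lost without library 3 of Ctrl (adjusted p = 0.064).

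SRSF5 rose at 20 s (0.16 ± 0.046) and 75 s (0.16 ± 0.055) and fell at 15 min (-0.26 ± 0.062, adjusted p = 0.0024), where the highest library (103.6 CPM) lay just below the lowest of Ctrl (103.7 CPM). The GC curve gave 0.34, 0.35 and 0.12 at these times, and it added calls at 3 min (0.36), 5 min (0.26) and 9 min (0.13). The calls of SRSF5 at 20 s and 75 s were lost in the single model (adjusted p = 0.071 and 0.054) and with total counts (0.100 and 0.063). SRSF6 fell at 3 min (-0.18) and 15 min (-0.22), and both values were positive with the GC curve (0.12 and 0.19, of which the second was called). The GC curve also called SRSF6 higher at 20 s (0.23), 75 s (0.18), 5 min (0.18), 7 min (0.15), 9 min (0.15) and 60 min (0.17), times without a call on TMM scaling alone. Without library 73 of hypg3, its lowest, SRSF6 was not called at 3 min (-0.095, adjusted p = 0.057). CLK2 and CLK3 rose at 75 s (0.12 and 0.10), 3 min (0.14 and 0.11) and 15 min (0.20 and 0.23). The GC curve left CLK2 uncalled at these times, while CLK3 was called, and it gave CLK2 a lower call at 20 s (-0.13, adjusted p = 0.0397). With 3 surrogate variables neither kinase was called at these times, with CLK2 at -0.024, 0.014 and -0.032 and CLK3 turned to -0.048, -0.077 and -0.085. Without library 3 of Ctrl, the calls at 75 s were lost for CLK2 (adjusted p = 0.068) and CLK3 (adjusted p = 0.077), as was that of CLK2 at 3 min (adjusted p = 0.068). CLK4, the member with the fewest counts, was not called at any time of 9 g on TMM scaling, from -0.23 ± 0.13 at 20 s to 0.23 ± 0.15 at 7 min. With the GC curve it was called higher at 9 min (0.32, adjusted p = 0.0062), 15 min (0.43, adjusted p = 0.0041) and 60 min (0.56, adjusted p = 0.00012).

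Over the 10 members, the counts called higher and lower stood beside the following backgrounds. At 20 s there were 1 and 1 (6.66% and 8.58% of genes), at 75 s 3 and 4 (16.8% and 14.4%) and at 3 min 2 and 5 (16.9% and 24.4%). At 5 min no member was called in either direction (6.02% of 16284 genes). At 7 min there were 1 and 1 (6.64% and 6.19%), at 9 min 0 and 3 (11.3% and 8.34%) and at 15 min 2 and 5 (25.4% and 27.9%). The count at 3 min was 4 in place of 7 without library 3 of Ctrl. The balance of higher and lower calls turned with the GC curve, to 4 and 1 at 75 s (9.35% and 16.6% of genes), 3 and 1 at 3 min (6.18% and 27.0%), 4 and 3 at 9 min (12.2% and 16.1%), 6 and 1 at 15 min (13.05% and 29.6%) and 4 and 2 at 60 min (19.5% and 19.4%). At 20 s it gave 2 and 2 (4.26% and 9.80% of genes), at 5 min 3 and 0 (5.1% and 10.5%) and at 7 min 2 and 2 (8.65% and 13.1%). With 3 surrogate variables in the model, no member was called at 9 min or 15 min, where SRSF7 stood at -0.13 and -0.054. The share of all genes called in that model is not given here, so the loss of calls cannot be set against it. SRSF7 was at -0.10 at 3 min, also without a call. CLK3 was at 0.065 at 60 min and not called, as was SRSF2 (-0.046), while CLK1 (0.85), SRSF7 (-0.29) and SRSF3 (-0.14) were called at 60 min.

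Contrasts between times gave few calls. The controls Ctrl60 and Ctrl differed in no member (0.0124% of genes, with 578 of 16109 at an unadjusted p below 0.05), and the CLK1 difference was -0.011 ± 0.11. Between hypg9 and hypg75s no member was called (5.0% of genes). Between hypg15 and hypg3, which have neighbouring library numbers, SRSF5 was lower (-0.37 ± 0.057, adjusted p = 0.0028) and no other member was called (1.7% of genes higher and 0.842% lower). This SRSF5 difference was also called with the GC curve (-0.26) and with surrogate variables (-0.36).

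Exposures of 5 min were compared across the experiments by the difference of the changes. The heat change minus the hypg5 change was not called for any member (7.81% of 17395 genes, 3338 of them at an unadjusted p below 0.05). For CLK1 it was 0.14 ± 0.16 (interval -0.17 to 0.46), so that a difference of this size could not be seen. The wait1min change minus the hypg5 change, a contrast chosen after the data were seen, was called higher for 7 members and lower for 1 (34.7% and 37.9% of genes). It was 1.93 ± 0.16 for SRSF11, 1.63 ± 0.20 for CLK4, 1.17 ± 0.14 for CLK1 and -0.61 ± 0.073 for CLK3. Under the GC curve CLK1 was at -0.41, CLK4 at 0.099 without a call, SRSF11 at 0.45 and CLK3 at -0.54. The 2 experiments differ in more than the force, as cell density and vessel were not the same.

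Other genes of the pathway were counted from lists, on TMM scaling without the GC curve. Their named examples include genes of low GC content (NKTR 36.5%, PRPF4B 37.5%, BCLAF1 36.4%, PPP1CB 35.5%) and of high GC content (PPP1CA 61.4%, DYRK1B 65.7%), and the part of GC content in these list counts was not tested. The counts are to be read against the shares of all genes called higher and lower, which were 16.9% and 24.4% at 3 min, 25.4% and 27.9% at 15 min, 17.1% and 13.0% at 60 min, 41.4% and 40.1% in wait1min, and 10.6% and 10.2% in heat. The medians over all genes tested were -0.016 at 3 min, -0.019 at 60 min, 0.0056 in wait1min and 0.0080 in heat. Of the remaining SR proteins, 5 of 6 were tested, and all 5 fell at 3 min and at 15 min of 9 g (24.4% and 27.9% of all genes did), with medians of -0.23 and -0.36. SRSF1, the founding SR protein, fell at 3 min from 112 ± 4.04 to 79.7 ± 10.7 CPM (-0.53 ± 0.075, adjusted p = 1.0e-04). In wait1min 3 rose, among them SRSF10 (1.69 ± 0.038), and 1 fell, SRSF9 (-0.64 ± 0.034). SRSF10 fell at 60 min of 9 g (-0.44 ± 0.14, adjusted p = 0.028). In heat none rose and 3 fell, with SRSF4 at -0.25 ± 0.034.

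Of 17 SR-like proteins, which have arginine/serine domains without being classical SR proteins, 2 rose and 11 fell at 3 min, 2 rose and 5 fell at 60 min, 12 rose and 4 fell in wait1min, and 2 rose and 5 fell in heat. Of all genes, 24.4% fell at 3 min, 13.0% at 60 min and 10.2% in heat, and 41.4% rose in wait1min. The list medians were -0.31 at 3 min, -0.27 at 60 min, 0.88 in wait1min and -0.022 in heat. CCNL2, a cyclin in nuclear speckles, rose at 3 min (0.29 ± 0.049) and 60 min (0.47 ± 0.063). BCLAF1 fell at both times (-0.64 ± 0.19 and -0.90 ± 0.21). NKTR, a cyclophilin with an arginine/serine domain, had 31.3 ± 3.01 CPM in Ctrl300g and 231 ± 11.1 CPM in wait1min (2.85 ± 0.060), and it rose slightly in heat (0.20 ± 0.062, adjusted p = 0.030). RNPS1, an exon junction protein, fell in wait1min (-0.69 ± 0.035), and RSRC1 fell in heat (-0.29 ± 0.096, adjusted p = 0.041).

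Among the other kinases of SR proteins, their phosphatase subunits and their importin, 9 of 10 were tested. In heat and at 60 min of 9 g none of the 9 was called, at 3 min 1 rose and 7 fell (16.9% and 24.4% of all genes), and in wait1min 6 rose and 3 fell (41.4% and 40.1%), with medians of -0.47 at 3 min and 0.49 in wait1min. PRPF4B, a kinase of the spliceosome, rose in wait1min (1.95 ± 0.075) and PPP1CA, a catalytic subunit of protein phosphatase 1, fell (-1.11 ± 0.038). DYRK1B rose at 3 min (0.30 ± 0.048) and PPP1CB fell (-0.67 ± 0.14).

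The 24 hnRNP proteins, which often oppose SR proteins at splice sites, had no member called higher at any time of 9 g or in heat. At 3 min 18 fell, at 60 min 16 and in heat 13 (24.4%, 13.0% and 10.2% of all genes fell), with medians of -0.33, -0.37 and -0.15. SYNCRIP fell the most at 3 min (-0.67 ± 0.12). HNRNPU fell in hypg60 from 797.5 ± 39.0 to 451 ± 140 CPM (-0.83 ± 0.15, adjusted p = 0.0011) and in heat from 669.5 ± 21.5 to 442 ± 20.8 CPM (-0.58 ± 0.035, adjusted p = 2.4e-08). In wait1min 11 rose and 13 fell (41.4% and 40.1% of all genes), with HNRNPH2 at 1.81 ± 0.089 and the poly(C)-binding protein PCBP1 at -0.97 ± 0.038.

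Of 14 factors of nonsense-mediated decay, the pathway that removes poison-exon isoforms, 2 rose and 5 fell at 3 min, none rose and 5 fell at 60 min, 6 rose and 8 fell in wait1min, and 2 rose and 1 fell in heat. Of all genes, 24.4% fell at 3 min and 13.0% at 60 min, and 41.4% rose and 40.1% fell in wait1min. The list medians were -0.0052, -0.024, -0.39 and -0.0079. At 3 min SMG5 rose (0.15 ± 0.041) and UPF2 fell (-0.54 ± 0.14), and at 60 min MAGOH fell (-0.55 ± 0.12). In wait1min UPF3B rose by 2.32 ± 0.076 and EIF4A3 fell by 0.82 ± 0.037. UPF3A rose in heat (0.29 ± 0.063, adjusted p = 0.0035) and EIF4A3, a core protein of the exon junction complex, fell (-0.15 ± 0.033, adjusted p = 0.0029).

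Genes with the pattern most like that of CLK1 over 79 libraries, each experiment centred on its own mean, were TRIM52 (Pearson r = 0.901), NCBP3 (0.895) and WDFY3 (0.894) among 10397 genes of at least 5 CPM. For SRSF7 they were ATP6V1E1 (0.881), MORF4L2 (0.871) and H2AZ1 (0.869). These correlations are descriptions, since the libraries share groups, depth and base composition.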

How the data were processed

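Jurkat RNA was depleted of rRNA and made into strand-specific libraries. Per the file headers and the processing notes, the authors trimmed reads with Trim Galore 0.6.5, aligned them to hg38 with STAR 2.7.3a and deposited gene counts from featureCounts (2.0.3 in the header, 2.0.1 in the notes) on Ensembl 104, counted by strand. All 80 columns were matched to samples by the column name that each sample's description gives, and groups follow the titles, which the column names contradict for wait1min, wait4min and Ctrl60. A table with 3 broken lines left 60663 genes. Here, edgeR 4.0.16 (TMM, filterByExpr with a minimum count of 10, quasi-likelihood test, only the 2 groups compared) gave the main values, and intervals are 95% normal intervals. DESeq2 1.42.0, other scalings, no filter, a GC content offset (lowess span 0.3 in each library, GC from GENCODE 29 longest transcripts), 1 model per experiment, 3 surrogate variables and leaving out libraries were alternatives. Scripts were tested on simulated data. The named genes are all 10 members, for each list the largest called rise and fall at a mean of at least 5 CPM in heat, wait1min, hypg3 and hypg60, and all 4 heat shock genes in heat. Members and lists were chosen with earlier results of these data known. Replicates differed by more than sampling noise (at least 1.39 chi-square per gene). SRSF2 overlaps MFSD11 and CLK3 overlaps EDC3 on the opposite strand.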

Additional observations from a re-analysis of the deposited data

Results flagged for a closer look

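Of 150 sets of levels (10 members in 15 groups), 10 held a library far from the others of its group by Dixon's test at 95%, which flags about 1 in 20 groups by chance. CLK1 stood at 23.7 CPM in library 3 of Ctrl (others 17.8 to 19.2) and at 25.9 CPM in library 9 of Ctrl60 (others 17.2 to 19.4). SRSF11 stood at 90.5 CPM in library 44 of hypg60 (others 43.0 to 57.0). In library 73 of hypg3, SRSF3 stood at 275 CPM (others 321 to 334) and SRSF6 at 130.2 CPM (others 161 to 178). SRSF5 was at 221 CPM in library 54 of wait1min (others 181 to 187) and at 181 CPM in library 60 of wait4min (others 187 to 188). SRSF2 was at 342 CPM in library 64 of wait15min (others 385 to 392). CLK2 was at 38.2 CPM in library 41 of hypg9 (others 31.6 to 33.0) and at 51.6 CPM in library 57 of wait4min (others 48.6 to 49.1).

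The change after 5 min at 300 g (wait1min) differed from the change after 5 min at 9 g (hypg5) in 8 members by a test of the difference itself (edgeR, chosen after the data were seen), beside 34.7% of all genes called higher and 37.9% called lower. The log2 differences were 1.93 for SRSF11, 1.63 for CLK4, 1.17 for CLK1, 0.73 for SRSF5, 0.33 for SRSF7, 0.28 for CLK2, 0.19 for SRSF6 and -0.61 for CLK3. Under the GC curve the balance turned from 7 higher and 1 lower to 2 higher and 6 lower, beside 35.3% and 21.8% of all genes. CLK1 was then at -0.41, SRSF5 at -0.24, SRSF6 at -0.92 and SRSF7 at -0.46, and CLK4 was not called (0.099). The experiments also differed in cell density, vessel and controls, and these cannot be told apart from the force.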

How the results depend on the processing

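No paired analysis was made because the sample titles name no pairing of libraries between groups. The library numbers run on through the series and carry no such information. DESeq2 and RLE factors left the number of called members within 1.5 times of the main count in every comparison. The numbers that moved further were as follows. With the GC content offset, 4 members were called at 20 s (main 2), 4 at 3 min (7), 3 at 5 min (0), 4 at 7 min (2), 7 at 9 min (3), 1 in hypg9 against hypg75s (0) and 1 for heat minus hypg5 (0). The share of all genes called moved as well. At 5 min, 5.1% of all genes were called higher and 10.5% lower under this offset (main 6.02% either way). At 3 min the shares were 6.18% and 27.0% (main 16.9% and 24.4%). They were 2.45% and 2.42% in hypg9 against hypg75s and 4.18% and 6.27% for heat minus hypg5. With 3 surrogate variables, 4 were called at 75 s (7), 3 at 3 min (7), 0 at 9 min (3), 0 at 15 min (7), 3 at 60 min (5), 2 in hypg9 against hypg75s (0) and 3 in hypg15 against hypg3 (1). With all groups in a single model, 1 was called at 20 s, 4 at 75 s, 1 at 7 min and 3 in heat (6). With total counts, 1 was called at 20 s. Without a filter, 4 were called at 75 s, 4 at 3 min and 1 in wait15min against wait1min (0). Shares of all genes called under these other alternatives, or with libraries left out, are not given here. Those counts of members therefore cannot be set against a background.

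Leaving out a library gave 4 to 6 called members in heat, 8 to 9 in heat against wait1min and in wait1min, 9 to 10 in wait4min, 8 to 10 in wait15min and 7 in hypg15. Leaving out libraries 3, 9, 44 or 73, chosen after the data were seen, gave 4 to 5 at 3 min, 5 at 75 s, 3 at 7 min and 5 to 7 at 60 min. Without library 3, CLK2 and CLK3 at 75 s and SRSF2, SRSF6 and CLK2 at 3 min lost their calls, while SRSF6 at 7 min and CLK1 at 9 min gained one. SRSF2 lost its call at 3 min without library 73, SRSF3 at 60 min without library 9, and CLK2 gained one at 60 min without library 9 or 44. SRSF2 gained a call in wait1min without library 54 and lost it in heat against wait1min without library 65 or 66, SRSF3 gained one in wait4min without library 50 or 52, and CLK2 gained one in heat without library 67.

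Directions turned as follows, each a log2 fold change under the alternative where it or the main value was called. The GC offset gave, at 75 s, 0.022 for SRSF3, 0.18 for SRSF6 and 0.23 for CLK1, and at 3 min 0.12 for SRSF6 and 0.26 for CLK1. At 15 min it gave 0.23 for SRSF3, 0.12 for SRSF5, 0.19 for SRSF6, 0.032 for SRSF7, 0.55 for CLK1 and 0.43 for CLK4, and at 60 min 0.057 for SRSF3 and 0.17 for SRSF6. It gave -0.999 for SRSF3, -0.76 for SRSF6, -0.49 for SRSF7 and -0.17 for CLK1 in wait1min. In wait4min it gave -0.0060 for SRSF5, -0.72 for SRSF6, -0.58 for SRSF7 and -0.13 for CLK1. In wait15min it gave -0.069 for SRSF5, -0.77 for SRSF6, -0.59 for SRSF7 and -0.18 for CLK1. In heat against wait1min it gave 1.06 for SRSF3, 0.87 for SRSF6, 0.52 for SRSF7 and 0.42 for CLK1. For wait1min minus hypg5 it gave -1.06 for SRSF3, -0.24 for SRSF5, -0.92 for SRSF6, -0.46 for SRSF7 and -0.41 for CLK1.

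Surrogate variables gave -0.024 for CLK2 and -0.048 for CLK3 at 75 s, and 0.032 for SRSF2, 0.061 for SRSF6 and -0.077 for CLK3 at 3 min. At 15 min they gave 0.014 for SRSF3, 0.049 for SRSF6, -0.032 for CLK2 and -0.085 for CLK3. Total counts gave 0.17 for SRSF2 in wait1min, 0.18 for SRSF2 and 0.21 for SRSF3 in wait4min, 0.16 and 0.18 in wait15min, and 0.19 for SRSF2 in wait1min minus hypg5. The median of all genes moved with that scaling by 0.24 to 0.26 in the 300 g comparisons and by -0.12 in heat against wait1min. The cause of the turns was not tested. Depth limits CLK4 most, with 110 counts in its lowest library.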
